A study of Mus musculus with 89 samples.

Results

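Livers of mice bearing 4T1 tumours were compared with livers of mice given saline, in 1 of the tumour experiments of a larger liver series. The comparison held 6 of the 89 samples of the series and covered every gene in 1 table of the authors, 23306 genes in all. The tumour-bearing group, 4T1-Tb, was 3 BALB/c mice whose mammary fat pad had received 100000 4T1 cells in 50 µl of phosphate-buffered saline (PBS) 4 weeks earlier. The control group, PBS-5, was 3 BALB/c mice of the same interval whose fat pad had received 50 µl of PBS alone. 4T1 is a mouse mammary carcinoma line of BALB/c origin that spreads from the fat pad to distant organs, and the tissue sequenced was the liver, not the tumour. Age, sex and genotype were not given in the labels, and nothing in them says whether the livers held metastases. For comparison, 67NR-Tb was 3 BALB/c mice injected in the same way with 67NR, a mammary line of the same origin that rarely spreads, against the 3 mice of PBS-3. B16F10-Tb was 3 C57BL/6 mice 3 weeks after 500000 B16F10 melanoma cells under the skin in 100 µl, against the 3 mice of PBS-1.

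The authors' deposited table gave, for each gene, a base mean (the mean read count over the 6 livers after scaling for depth), a log2 fold change of 4T1-Tb over PBS-5 with its standard error, and a p-value. Values per liver were not analysed here, so the spread between mice enters only through these standard errors, and whether the groups overlap for a gene cannot be read. The depth of each library is unknown. Genes whose adjusted p in the authors' DESeq2 test lay below 0.05 were taken as changed, and values after ± are the deposited standard errors, with 3 livers a group. The deposited fold changes had been drawn toward 0 in the authors' fit, more so where the error was large, so they understate large changes. Where a gene is said to have fallen to a negative value, that value is its log2 fold change. The p-value of 48 genes in the authors' deposited table was withheld although a fold change was given, as DESeq2 does where 1 sample holds an extreme count. Of these genes 36 had a positive and 12 a negative fold change. In bulk liver, a change in the number of cells of a type and a change in RNA per cell cannot be told apart.

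The liver makes most plasma proteins. In inflammation, cytokines of the interleukin-6 family act on hepatocytes through the receptor subunit gp130 and the transcription factor STAT3, together with C/EBP factors and NF-kB, to raise acute phase proteins. Tumours that secrete granulocyte colony-stimulating factor drive the production of neutrophils, and 4T1 is known for the rise in circulating neutrophils that it causes in mice. Neutrophils carry granule proteins made in sequence as the cell matures, from the serine proteases of the promyelocyte to the antimicrobial proteins of later stages.

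The promoters below belong to genes of the acute phase, granulocyte and amino acid response groups described further on, and are shown because C/EBP and STAT factors are textbook regulators of acute phase genes and ATF4 of amino acid response genes. They are RefSeq sequences of build GRCm38.p6, 250 bases ending at the base before the annotated start, written 5′ to 3′ on the gene's strand. Saa1 lies at chr7:46742981-46743230 (minus strand), Saa2 at chr7:46751583-46751832 (plus), Lcn2 at chr2:32387740-32387989 (minus), Fga at chr3:83025903-83026152 (plus), Ngp at chr9:110419558-110419807 (plus) and Asns at chr6:7693210-7693459 (minus). Capitals mark matches on either strand to TTGCNNAA, a C/EBP motif, to TTCNNNGAA, a STAT motif, or, in Asns, to TGATGNAA, an amino acid response motif. A further motif searched, that of NF-kB, had no match in these 6 windows, and no match overlapped another.
Saa1: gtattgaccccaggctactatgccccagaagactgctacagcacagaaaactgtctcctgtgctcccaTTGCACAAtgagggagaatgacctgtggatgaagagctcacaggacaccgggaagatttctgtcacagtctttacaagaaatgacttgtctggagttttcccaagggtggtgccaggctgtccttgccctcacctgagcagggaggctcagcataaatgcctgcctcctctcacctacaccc
Saa2: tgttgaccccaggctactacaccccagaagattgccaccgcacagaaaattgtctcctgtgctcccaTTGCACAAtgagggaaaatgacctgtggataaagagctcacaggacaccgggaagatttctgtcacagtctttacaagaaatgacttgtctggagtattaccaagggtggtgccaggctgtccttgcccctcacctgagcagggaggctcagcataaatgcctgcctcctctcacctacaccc
Lcn2: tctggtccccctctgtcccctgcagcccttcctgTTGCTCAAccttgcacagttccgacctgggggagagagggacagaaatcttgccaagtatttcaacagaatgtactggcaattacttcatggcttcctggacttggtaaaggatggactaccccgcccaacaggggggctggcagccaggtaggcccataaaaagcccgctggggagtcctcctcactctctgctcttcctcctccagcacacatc
Fga: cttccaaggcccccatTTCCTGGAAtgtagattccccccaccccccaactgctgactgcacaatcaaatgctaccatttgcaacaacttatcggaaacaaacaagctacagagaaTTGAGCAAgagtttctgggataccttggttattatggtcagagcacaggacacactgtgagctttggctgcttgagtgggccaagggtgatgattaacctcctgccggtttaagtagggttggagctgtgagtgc
Ngp: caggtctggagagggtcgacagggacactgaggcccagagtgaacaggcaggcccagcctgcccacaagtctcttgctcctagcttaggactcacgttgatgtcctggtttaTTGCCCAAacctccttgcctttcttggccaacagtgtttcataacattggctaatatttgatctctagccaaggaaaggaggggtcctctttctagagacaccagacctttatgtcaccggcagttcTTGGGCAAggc
Asns: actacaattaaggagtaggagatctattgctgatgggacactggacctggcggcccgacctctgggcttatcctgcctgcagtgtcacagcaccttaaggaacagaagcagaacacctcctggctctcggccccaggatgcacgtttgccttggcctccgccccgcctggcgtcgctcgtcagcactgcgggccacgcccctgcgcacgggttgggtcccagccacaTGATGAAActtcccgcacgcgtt

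Of the 30 acute phase genes listed, 23 had a promoter in the RefSeq table, and 12 of these (52.2%) held TTGCNNAA, against 9.56% of all 32851 promoters. Counted per gene over all starts, as for the list, the share was 10.8% of 27025 genes. TTCNNNGAA was in 7 of the 23 acute phase genes (30.4%), against 7.02% of all promoters and 8.13% of all genes, and the NF-kB motif in 4 (17.4%), against 4.11% and 4.71%. The C/EBP letters were in 4 of 24 mature neutrophil genes and in 4 of 13 neutrophil precursor genes, among them Ngp with 2 matches. TGATGNAA was in 5 of 29 genes of the unfolded protein and integrated stress responses (17.2%), against 3.45% of all promoters and 3.91% of all genes. A match is a string of letters and not a measured site. The Saa1 and Saa2 windows printed above are nearly alike, so the promoters of the acute phase list are not all independent of each other.

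The 4T1 tumour moved a large part of the liver transcriptome. Of 15272 genes tested, 6628 changed (43.4%) in the authors' deposited table, of which 3425 rose (22.4% of those tested) and 3203 fell (21%). The median log2 fold change over all genes tested was 0.01. Large rises outnumbered large falls: 1736 genes rose and 422 fell by at least 1 on the log2 scale, and 206 rose and 4 fell by at least 3.

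The largest rises among genes with a base mean of at least 50 were mostly those of neutrophil and myeloid genes. Camp, which encodes the antimicrobial peptide cathelicidin, rose by 7.07 ± 0.38 on the log2 scale in the authors' deposited table (DESeq2 adjusted p = 1.09e-72). Ctsg, the cathepsin G gene, rose by 6.80 ± 0.39, and the calprotectin subunit genes S100a8 and S100a9 by 6.20 ± 0.40 and 5.72 ± 0.41. Also in the authors' deposited table, Chi3l1, a chitinase-like secreted protein gene, rose by 6.11 ± 0.37 and Retnlg, a resistin-like gene of mouse neutrophils, by 5.99 ± 0.37. Myb, a transcription factor gene of haematopoietic progenitors, rose by 5.33 ± 0.38, Ltf (lactoferrin) by 5.20 ± 0.43 and Lcn2, whose siderophore-binding product is made by both neutrophils and hepatocytes, by 5.17 ± 0.38. Pram1, a myeloid adaptor gene, Pglyrp1, which encodes a peptidoglycan-binding granule protein, and Elane, the neutrophil elastase gene, rose by 4.88 ± 0.28, 4.86 ± 0.41 and 4.82 ± 0.43 in the deposited table of the authors. The next in order, Asprv1, stood at 4.82 ± 0.37.

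The largest falls were mostly of genes for enzymes of fatty acid and xenobiotic metabolism. Cyp4a10, a fatty acid omega-hydroxylase gene and classic PPARα target, fell by 3.89 ± 0.34 on the log2 scale in the authors' deposited table (DESeq2 adjusted p = 1.38e-28). The keratin gene Krt23 stood at −3.84 ± 0.39, the P450 gene Cyp2a22 at −3.59 ± 0.22 and the peroxisomal acyl-CoA thioesterase gene Acot3 at −3.28 ± 0.41, and all 3 fell. Also in the authors' deposited table, the P450 genes Cyp2a5, Cyp2g1 and Cyp2b13 fell to −2.86 ± 0.29, −2.77 ± 0.36 and −2.71 ± 0.20. Vldlr, the very low density lipoprotein receptor gene, fell to −2.69 ± 0.30, the hydroxyacid oxidase gene Hao2 to −2.69 ± 0.32, the cytosolic thioesterase gene Acot1 to −2.65 ± 0.37, the carbonic anhydrase gene Car1 to −2.53 ± 0.42 and the steroid hydroxylase gene Cyp17a1 to −2.52 ± 0.21. The next in order, Ugt1a9, stood at −2.51 ± 0.28 in the authors' deposited table. Members of the Cyp2a, Cyp4a, Acot, Saa, Gsta and Mup families share much of their sequence, and how reads were divided among them is not given in the sources used here.

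**Figure D1:**
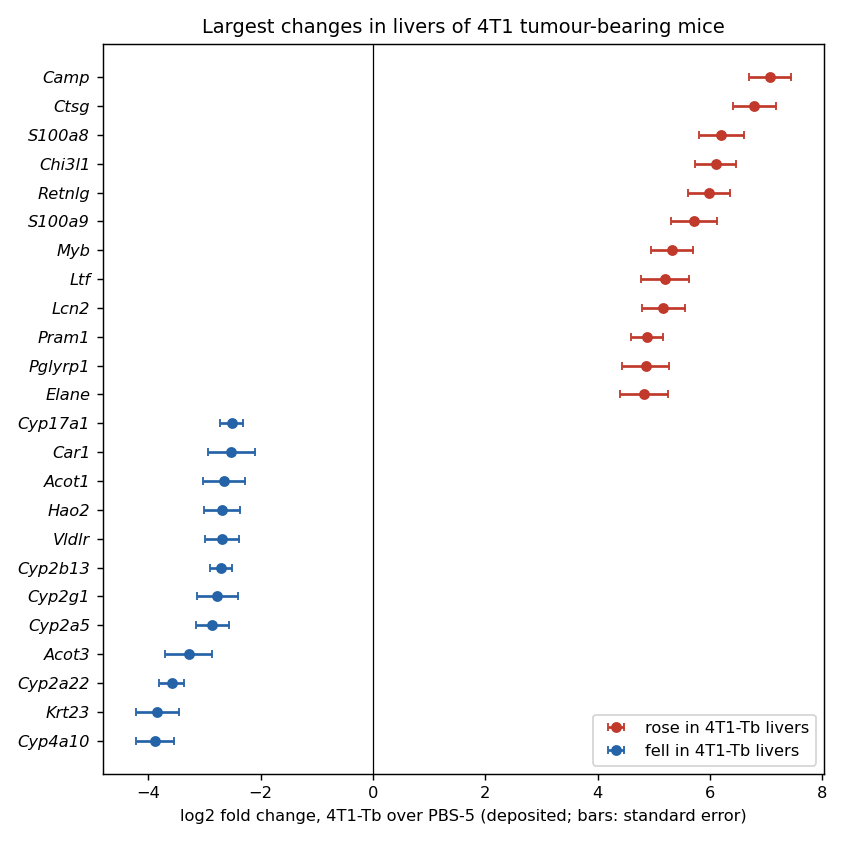
Log2 fold change of 4T1-Tb over PBS-5 (horizontal axis) for the 12 largest rises and 12 largest falls among genes past an adjusted p of 0.05 whose base mean was at least 50. Points are deposited estimates and bars standard errors, 3 livers a group; Camp is highest at 7.07 and Cyp4a10 lowest at −3.89.

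Every neutrophil gene tested rose. All 22 mature neutrophil genes tested rose, with a median of 3.90 on the log2 scale in the authors' deposited table, where 22.4% of all genes tested rose and the median was 0.01. All 10 neutrophil precursor genes tested rose, with a median of 4.64. The authors' filter on low base means uses the mean over all 6 livers. A gene with few reads in PBS-5 could pass it through the 4T1-Tb livers alone. How far this shaped the share that rose was not tested. With 67NR-Tb, 11 mature and 2 precursor genes were tested. Csf3r, the receptor gene for granulocyte colony-stimulating factor, rose by 4.38 ± 0.27 in the authors' deposited table (DESeq2 adjusted p = 3.21e-55). The precursor markers Kit and Cd34, which other progenitors and endothelium also express, rose by 1.83 ± 0.23 and 1.88 ± 0.23. A further 11 members of these lists were among the genes without a p-value. Of the defining markers, Mpo (myeloperoxidase) stood at 5.80 ± 0.42, Prtn3 (proteinase 3) at 4.69 ± 0.43 and Ms4a3 at 4.18 in the authors' deposited table, all without a test. Cd177, Mmp8 and Mmp9 stood at 6.73 ± 0.38, 5.66 ± 0.39 and 4.84 ± 0.40, also without a test. The part of 1 liver with an extreme count in the tested neutrophil genes was not tested. Wfdc21, listed as 1100001G20Rik, rose by only 0.27 in the authors' deposited table, the smallest rise of the mature list.

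In the authors' deposited table, 11 of 25 chemokine genes tested rose and 5 fell, against 22.4% and 21% of all genes tested. The receptor gene Ccr1 rose by 4.75 ± 0.35, Cxcr2, the receptor that guides neutrophils, by 3.64 ± 0.27, Cxcr4, which holds them in the marrow, by 3.34 ± 0.33 and the ligand gene Ccl6 by 2.46 ± 0.26. Among ligands of Cxcr2, Cxcl1 rose by 1.58 ± 0.22 (DESeq2 adjusted p = 1.87e-11), while Cxcl2 stood at 0.26 ± 0.43 and did not pass (0.675), and Cxcl5 was below the authors' filter on low base means. The interferon-gamma-inducible ligands Cxcl9 and Cxcl10 fell to −1.26 ± 0.19 and −0.65 ± 0.28 in the deposited table of the authors. Ccl2, the monocyte attractant, stood at 0.12 ± 0.39 and did not pass, and its receptor gene Ccr2 rose by 3.41 ± 0.37.

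Acute phase genes rose almost as a block. Of 28 tested, 27 rose and none fell, by the authors' deposited values, with a median of 1.84 log2. Orm3, an orosomucoid gene, rose by 2.63 ± 0.16 (DESeq2 adjusted p = 1.04e-59), Lrg1, a leucine-rich glycoprotein gene, by 2.92 ± 0.18 and Fgl1, a fibrinogen-like hepatokine gene, by 2.88 ± 0.21. The serum amyloid A genes Saa1, Saa2 and Saa3 rose by 4.66 ± 0.39, 4.41 ± 0.42 and 2.56 ± 0.34 in the deposited table of the authors, and the promoters of Saa1 and Saa2 printed above each held the C/EBP letters. The fibrinogen chain genes Fga, Fgb and Fgg rose by 1.59, 1.42 and 1.56. The member that did not pass was Crp, C-reactive protein, at −0.02 ± 0.14 (0.914); in the mouse it is a weak acute phase reactant. A2m stood at 2.34 ± 0.41 and Hamp, the iron-regulating hormone hepcidin, at −1.60 ± 0.19 in the authors' deposited table, both without a p-value.

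Genes of plasma proteins known to drop in inflammation moved in both directions. In the authors' deposited table, 11 of 21 such genes fell and 5 rose, against 21% and 22.4% of all genes tested. The share that rose was thus near that of all genes. Alb (albumin) fell to −0.37 ± 0.09 and Serpina6, the corticosteroid-binding globulin gene, to −1.92 ± 0.33. Apoa1, the main protein of high-density lipoprotein, rose by 1.08 ± 0.14 and Ahsg (fetuin-A) by 0.74 ± 0.10, while Ttr (transthyretin) stood at 0.20 ± 0.09 and did not pass (0.0601). Of 35 complement and coagulation genes tested, 15 rose and 10 fell, by the authors' deposited values, against 22.4% and 21% of all genes tested. C4b rose by 1.29 ± 0.07 (DESeq2 adjusted p = 3.18e-64), C9 by 1.72 ± 0.15, the C1 inhibitor gene Serping1 by 0.95 ± 0.08 and Hc, the mouse C5 gene, by 0.69 ± 0.08.

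Of 23 interleukin-6 and STAT3 genes, 13 rose and 2 fell, by the authors' deposited values, with a median of 0.78. Il6 itself had a base mean of 1.2 and was below the authors' filter. Osm, the ligand oncostatin M, rose by 2.95 ± 0.42 at a base mean of 10.9 and its receptor gene Osmr by 1.95 ± 0.23 in the authors' deposited table. The shared subunit gene Il6st (gp130) rose by 1.02 ± 0.15, Stat3 by 0.99 ± 0.08 (DESeq2 adjusted p = 4.89e-33) and the feedback inhibitor gene Socs3 by 2.38 ± 0.35. Il6ra stood at 0.02 ± 0.18 and did not pass, and Lifr, the receptor gene for leukaemia inhibitory factor, fell to −1.11 ± 0.18 in the authors' deposited table. Il4ra rose by 1.27 ± 0.14.

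Of the genes of NF-kB, interleukin-1 and tumour necrosis factor (TNF), 18 of 31 rose and 2 fell, by the authors' deposited values. Tnf rose by 1.58 ± 0.42 at a base mean of 9.9, its receptor gene Tnfrsf1a by 0.62 ± 0.12, Il1b by 2.02 ± 0.38 and Il1r1 by 1.26 ± 0.24. Icam1, an adhesion molecule gene, rose by 1.14 ± 0.14 (DESeq2 adjusted p = 9.85e-16), Birc3 by 0.86 ± 0.12, Irak3, a brake on Toll-like receptor signalling, by 1.99 ± 0.28 and Tlr2 by 1.37 ± 0.20 in the deposited table of the authors. Interferon-stimulated genes rose for 15 of 37 members and fell for 1, with a median of 0.23. Zbp1 rose by 1.27 ± 0.18, Trim30a by 1.44 ± 0.22 and Oas3 by 1.46 ± 0.24 in the authors' deposited table. Of the interferon-gamma and antigen presentation genes, 9 of 32 rose, with the myeloid factor gene Irf8 at 1.67 ± 0.15. In the same list 6 fell (3 after re-centring on the median of abundant genes), with B2m at −0.52 ± 0.08. These shares were near the 22.4% and 21% of all genes tested. Immediate-early genes rose in 2 of 23 cases (Klf4 1.66 ± 0.34, Klf6 0.70 ± 0.21) and fell in 3, by the authors' deposited values.

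Of 27 monocyte and macrophage genes, 23 rose and 1 fell, by the authors' deposited values, with a median of 1.78. The lysozyme genes Lyz2 and Lyz1 rose by 2.80 ± 0.19 and 2.88 ± 0.20 and the NADPH oxidase subunit gene Ncf4 by 3.89 ± 0.28; neutrophils express these as well. Plac8 rose by 2.98 ± 0.22 and the inducible nitric oxide synthase gene Nos2 by 3.15 ± 0.40 in the authors' deposited table. Kupffer cell genes, those of the resident macrophages, rose in 15 of 17 cases and none fell, with a median of 1.01. With 67NR-Tb, 13 of 17 rose. The part of other cell types in the rises of these genes was not tested. Marco, a scavenger receptor gene, rose by 2.09 ± 0.32, Cd5l by 1.29 ± 0.20, Ptgs1 by 1.21 ± 0.16 and Clec1b by 1.31 ± 0.21 in the authors' deposited table (DESeq2 adjusted p = 6.54e-09 for Clec1b), and the defining markers Clec4f and Timd4 by 0.77 ± 0.16 and 1.09 ± 0.21. B and plasma cell genes rose in 8 of 17 cases, with Cd37 at 2.63 ± 0.23 and the immunoglobulin joining chain gene Igj at 1.71 ± 0.26. Of 24 T and NK cell genes, 2 rose, by the authors' deposited values, Nkg7 by 3.58 ± 0.33 and Cd3d by 1.32 ± 0.34. Cd3e, Cd8a and the perforin gene Prf1 stood at −0.29 ± 0.37, 0.44 ± 0.42 and −0.03 ± 0.42 and did not pass.

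In the authors' deposited table, 5 of 20 erythroid genes rose and 4 fell, shares close to the 22.4% and 21% of all genes tested. Gata1 rose by 1.85 ± 0.42 at a base mean of 7.0, whereas Car1 and the erythroid factor gene Klf1 fell to −2.53 ± 0.42 and −1.11 ± 0.35. Alas2, the erythroid enzyme of haem synthesis, stood at 0.24 ± 0.41 and did not pass.

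Proliferation genes rose in 28 of 32 cases and none fell, with a median of 2.33 on the log2 scale in the authors' deposited table. The DNA replication helicase genes Mcm2, Mcm3 and Mcm5 rose by 2.27 ± 0.16, 2.12 ± 0.16 and 2.60 ± 0.21, the ribonucleotide reductase gene Rrm1 by 1.48 ± 0.12 (DESeq2 adjusted p = 3.2e-35) and Mki67 by 3.47 ± 0.35. Neutrophil precursor genes moved with them, at a median of 4.64 in the authors' deposited table, and the part of dividing precursors in the proliferation genes was not tested.

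Basal keratins and related markers of mammary epithelial cells, the origin of the injected line, were at or near 0. Of 24 mammary epithelial genes, Krt5, Krt6b and Elf5 had no read in any of the 6 livers, and Krt14, Krt15, Krt17, Krt6a, Trp63, Pthlh and Areg had base means under 1 in the authors' deposited table. Of the 14 that were tested 3 rose and 2 fell, against 22.4% and 21% of all genes tested, with a median of −0.08. Elf3, an epithelial transcription factor gene, rose by 3.19 ± 0.32, Cdh1 (E-cadherin), which hepatocytes also express, by 0.86 ± 0.14 and Muc1 by 0.96 ± 0.29, while Epcam fell to −0.71 in the authors' deposited table. Krt7 and Krt19 stood at 0.45 and 0.06 and did not pass.

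Stellate cell and matrix genes also rose. Of 28 tested, 22 rose and 1 fell, with a median of 1.03 in the authors' deposited table. Tgfbi rose by 1.62 ± 0.13 (DESeq2 adjusted p = 6.47e-32), the collagen gene Col5a2 by 2.15 ± 0.21 and the growth factor gene Tgfb1 by 1.36 ± 0.17; leukocytes express Tgfb1 too. Col1a1 rose by 1.02 ± 0.22 and the stellate cell enzyme gene Lrat by 1.01 ± 0.36, while Acta2, which marks activated stellate cells, stood at 0.49 ± 0.29 in the authors' deposited table and did not pass. Sinusoidal endothelial genes rose for 12 of 22 members and fell for 1, with Clec4g at 0.85 ± 0.12, Fcgr2b at 0.75 ± 0.13 and Pecam1 at 0.89 ± 0.16, and with the VEGF receptor gene Kdr at 0.02 ± 0.16 (not passed). Of 13 cholangiocyte genes 4 rose, among them Sox9 by 2.08 ± 0.31, and 2 fell, by the authors' deposited values. Over all genes tested, 22.4% rose and 21% fell.

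**Figure D2:**
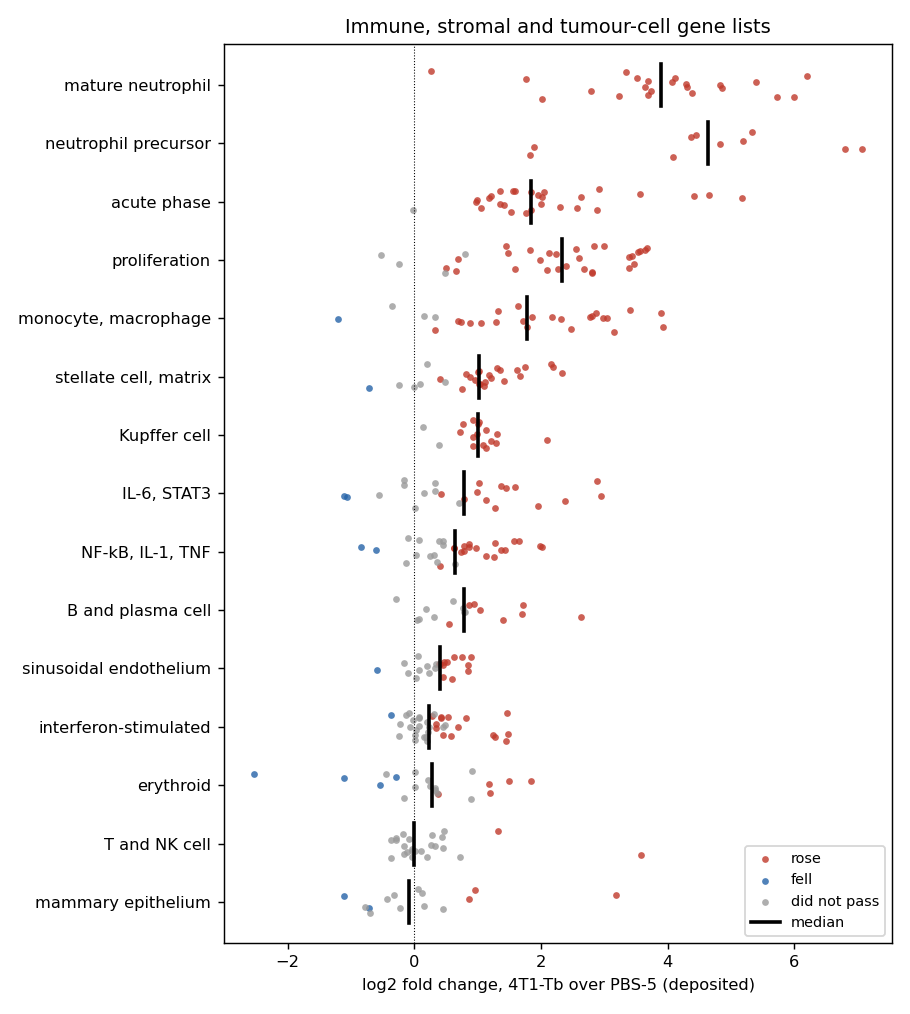
Deposited log2 fold change of 4T1-Tb over PBS-5 (horizontal axis) for each tested member of 15 gene lists (rows), coloured by whether it rose, fell or did not pass, with the list median as a bar. The neutrophil lists sit farthest right, at medians of 3.90 and 4.64, and T and NK cell genes lie around 0.

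Fatty acid oxidation genes fell together. Of 44 tested, 41 fell and 1 rose, by the authors' deposited values, where 21% of all genes tested fell, and the median was −0.77. Besides Cyp4a10, the omega-hydroxylase gene Cyp4a32 fell to −2.35 ± 0.22 (DESeq2 adjusted p = 7.34e-25), the peroxisome division gene Pex11a to −1.37 ± 0.13 and the enoyl-CoA isomerase gene Eci2 to −1.28 ± 0.14. Cpt1a, the rate-limiting carnitine palmitoyltransferase, fell to −0.89 ± 0.15 in the authors' deposited table. The regulators Ppara and Ppargc1a (PGC-1α) fell to −0.55 ± 0.20 and −0.73 ± 0.25. The member that rose was Vnn1, a pantetheinase gene, at 1.12 ± 0.37 in the authors' deposited table.

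Respiratory chain genes fell by smaller amounts. In the authors' deposited table, 34 of 36 complex I genes fell (median −0.48) and 35 of 39 genes of complexes II to V (median −0.46), and none rose. Folds of complex I genes lay between −0.78 and −0.04. Ndufb5 fell to −0.67 ± 0.09 (DESeq2 adjusted p = 1.69e-12), Ndufa10 to −0.66 ± 0.09, the succinate dehydrogenase subunit gene Sdhb to −0.90 ± 0.12 and the ATP synthase subunit gene Atp5c1 to −0.67 ± 0.10. Of 26 genes of the tricarboxylic acid cycle and pyruvate dehydrogenase, 21 fell and 2 rose, by the authors' deposited values. Pdk1, a kinase that inactivates pyruvate dehydrogenase, fell to −1.50 ± 0.15, the pyruvate dehydrogenase subunit gene Pdhb to −0.86 ± 0.10 and Idh3b to −0.92 ± 0.11. Cytosolic ribosome genes, by contrast, rose in 2 of 49 cases and fell in 2, by the authors' deposited values, with a median of 0.01, and after re-centring on the median of abundant genes 4 rose and 0 fell. Ribosome biogenesis genes rose for 1 of 27 members and fell for 3.

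Genes of drug and xenobiotic metabolism fell in all 3 groups listed. Cytochrome P450 genes and their regulators fell in 36 of 45 cases and rose in 1, with a median of −1.06 in the authors' deposited table. Cyp2a12 fell to −1.06 ± 0.10 and Cyp2f2 to −2.32 ± 0.23, and the pericentral genes Cyp1a2 and Cyp2e1 to −1.53 ± 0.17 and −1.14 ± 0.16. Nr1i3, which encodes the receptor CAR, fell to −1.08 ± 0.13, while the gene of the related receptor PXR, Nr1i2, stood at 0.00 ± 0.13 and did not pass in the authors' deposited table. Their target genes Cyp2b10 and Cyp3a11 stood at −0.06 ± 0.25 and −0.21 ± 0.21 and did not pass. Conjugation (phase II) genes fell in 36 of 39 cases and none rose, with a median of −1.10 in the authors' deposited table. The glucuronosyltransferase gene Ugt3a2 fell to −1.63 ± 0.13 (DESeq2 adjusted p = 1.1e-31), the sulfotransferase genes Sult1c2 and Sult1b1 to −2.41 ± 0.20 and −1.16 ± 0.11 and the glutathione transferase gene Gstm6 to −1.65 ± 0.19. Of 15 carboxylesterase genes 13 fell, with Ces1d at −1.34 ± 0.13, Ces1e at −1.81 ± 0.21 and Ces1f at −2.08 ± 0.30.

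Bile acid genes fell for 20 of 27 members and rose for 2, with a median of −0.80 in the authors' deposited table. The uptake transporter gene Slc10a1 (NTCP) fell to −1.35 ± 0.11 (DESeq2 adjusted p = 2.09e-34). The export pump gene Abcb11 fell to −0.86 ± 0.13 and Abcc2 to −0.96 ± 0.11, while the flippase gene Atp8b1 rose by 1.23 ± 0.13 in the authors' deposited table. Cyp7a1, the rate-limiting enzyme of bile acid synthesis, fell to −1.76 ± 0.42, Cyp8b1, which sets cholic acid production, to −0.80 ± 0.22 and the bile acid receptor gene Nr1h4 (FXR) to −0.75 ± 0.18. Its target Nr0b2 (SHP) stood at 0.33 ± 0.23 in the authors' deposited table and did not pass.

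Lipid and glucose genes were divided. Of 26 lipogenesis genes, 11 fell and 5 rose, by the authors' deposited values, where 21% of all genes tested fell and 22.4% rose. Pklr, the liver pyruvate kinase gene, fell to −2.27 ± 0.17, Dgat2, a triglyceride synthesis gene, to −1.49 ± 0.12 and Me1 to −1.40 ± 0.15. Pnpla3, a lipid droplet protein gene, rose by 3.09 ± 0.26 (DESeq2 adjusted p = 3.02e-31), Srebf1 by 0.55 ± 0.19, and the fatty acid synthase gene Fasn stood at 0.62 ± 0.30 (not passed) in the authors' deposited table. Lipid droplet and uptake genes fell for 13 of 26 members and rose for 3, with Slc27a2 at −1.18 ± 0.15, Mgll at −1.26 ± 0.16 and Lipc at −1.33 ± 0.19. Of 29 cholesterol genes, 13 rose and 5 fell, by the authors' deposited values. Among them the synthesis genes Sqle and Mvd rose by 1.64 ± 0.38 and 1.12 ± 0.23, and the sterol exporter gene Abcg8 fell to −0.58 ± 0.09. Of 26 glucose genes 7 rose and 10 fell, by the authors' deposited values. The hexokinase genes Hk1, Hk2 and Hk3 rose by 2.01 ± 0.20, 2.75 ± 0.30 and 3.34 ± 0.23, while the hepatic glucose transporter gene Slc2a2 fell to −1.86 ± 0.14. Pck1 and G6pc, enzymes of gluconeogenesis, stood at −0.48 ± 0.22 and −0.49 ± 0.42 in the deposited table of the authors and did not pass. Hk3 is a leukocyte hexokinase, and the part of leukocytes in its rise was not tested.

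Of 43 urea cycle and amino acid genes, 25 fell and 3 rose, by the authors' deposited values. Otc, the urea cycle carbamoyltransferase, fell to −1.03 ± 0.14, the aminotransferase gene Agxt to −1.23 ± 0.18 and Mccc1 to −0.86 ± 0.12, while Cps1, the rate-limiting enzyme of the urea cycle, stood at −0.17 ± 0.18 and did not pass (0.481). Serine and asparagine synthesis genes rose: Psat1 by 3.25 ± 0.32 (DESeq2 adjusted p = 5.96e-23), Phgdh by 3.61 ± 0.36 and Asns by 3.46 ± 0.35 in the authors' deposited table, the last with the amino acid response letters in the promoter printed above. These 3 belong to the unfolded protein and integrated stress response list, of which 13 of 32 members rose and 6 fell. Over all genes tested, 22.4% rose and 21% fell, so the share of this list that fell was near that of all genes. The glutathione-degrading enzyme gene Chac1 rose by 1.60 ± 0.38 and the hormone gene Fgf21 by 1.34 ± 0.39, Trib3 and Atf6 fell to −1.30 ± 0.37 and −0.36 ± 0.07, and Atf4, Ddit3 and Hspa5 stood at 0.20 ± 0.14, 0.41 ± 0.25 and 0.36 ± 0.17 in the deposited table of the authors and did not pass. Oxidative stress genes fell in 14 of 21 cases, with the catalase gene Cat at −1.23 ± 0.15 and Sod1 at −0.86 ± 0.12, and rose in 2, with G6pdx, the gateway enzyme of the pentose phosphate pathway, at 3.51 ± 0.26 in the authors' deposited table.

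**Figure D3:**
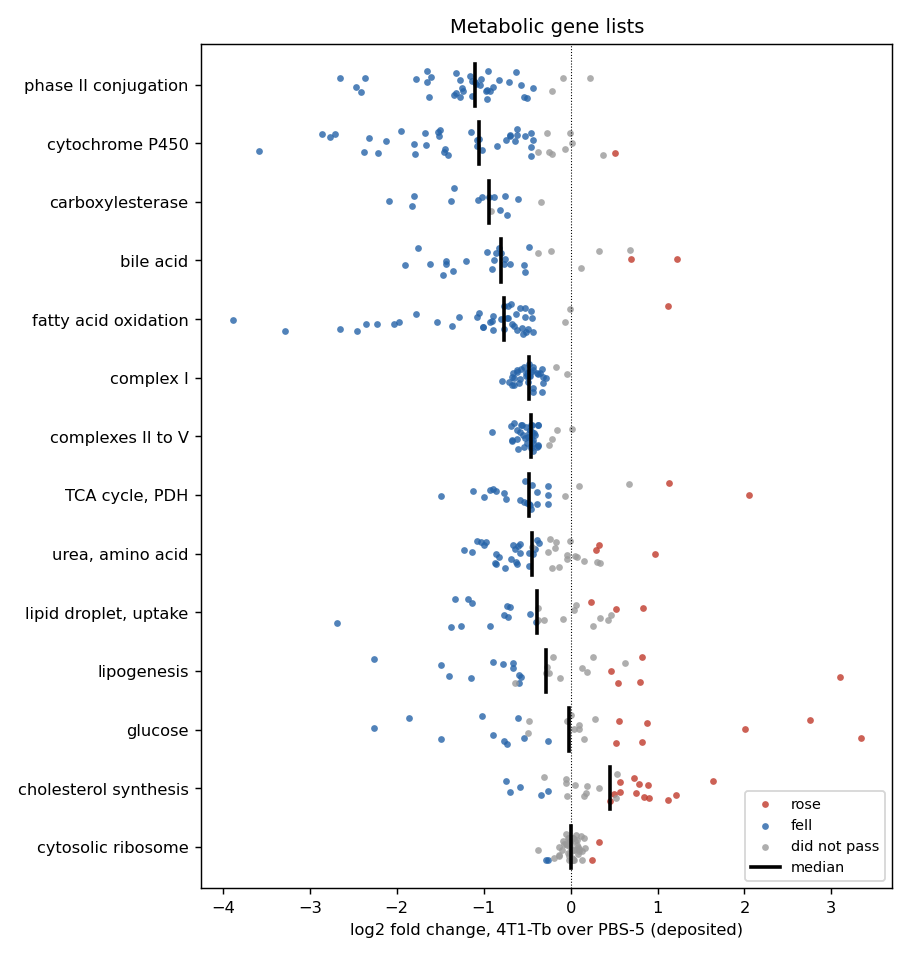
Deposited log2 fold change of 4T1-Tb over PBS-5 (horizontal axis) for each tested member of 14 metabolic gene lists (rows), coloured by whether it rose, fell or did not pass, with the list median as a bar. Conjugation, P450 and fatty acid oxidation genes lie to the left, at medians of −1.10, −1.06 and −0.77, the respiratory chain is a tight group near −0.48 and −0.46, and cytosolic ribosome genes centre on 0.01.

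Regulators of hepatocyte identity fell more often than they rose: 16 of 29 transcription factor genes fell and 3 rose, by the authors' deposited values. Cebpa fell to −1.16 ± 0.23, Klf15 to −0.89 ± 0.14 and Hnf4a to −0.26 ± 0.10, while Cebpd, the C/EBP factor of the acute phase, rose by 1.59 ± 0.29 (DESeq2 adjusted p = 4.54e-07) and Foxa3 by 0.67 ± 0.12. Cebpb stood at −0.16 ± 0.32 in the authors' deposited table and did not pass. Pericentral genes fell for 13 of 19 members and rose for 2, with the retinal dehydrogenase gene Aldh1a1 at −1.95 ± 0.19 and Gulo at −0.93 ± 0.11. Genes under growth hormone control fell in 13 of 25 cases and rose in 2, by the authors' deposited values. Keg1, Mup21 and the prolactin receptor gene Prlr fell to −2.12 ± 0.23, −2.15 ± 0.26 and −1.21 ± 0.16 and the receptor gene Ghr to −0.40 ± 0.10, while Igf1, the main hormone product, stood at −0.02 ± 0.12 (0.939).

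Of 21 clock genes, 10 fell and 2 rose, by the authors' deposited values. The positive-limb genes Arntl (BMAL1) and Clock rose by 1.84 ± 0.41 and 0.79 ± 0.16, the output genes Dbp and Hlf fell to −1.52 ± 0.43 and −0.81 ± 0.11 and the repressor gene Nr1d1 to −1.11 ± 0.43, and Per2 stood at 0.14 ± 0.25 (not passed). The hour at which each mouse was killed is not in the labels, and its part in the clock genes was not tested. Of 26 iron genes 11 rose and 7 fell, by the authors' deposited values: the haem and haemoglobin scavenger genes Hpx and Hp rose by 1.95 ± 0.16 and 2.30 ± 0.17 and Cp (ceruloplasmin) by 1.21 ± 0.15, and the hepcidin-like gene Hamp2 fell (DESeq2 adjusted p = 2.79e-07). Of 21 hepatokine genes 10 rose, with Inhbb (an inhibin and activin subunit) at 2.55 ± 0.36, and 5 fell. Metal-binding genes rose in 3 of 13 cases, with the metallothionein gene Mt2 at 1.45 ± 0.37, and fell in 4, by the authors' deposited values. Hypoxia genes rose in 6 of 18 cases, with Adm at 1.75 ± 0.29 and Ldha at 0.91 ± 0.11, and fell in 6. Over all genes tested, 22.4% rose and 21% fell, and the share of metal-binding genes that rose was close to the former.

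The same test called fewer genes in the other mammary tumour. In 67NR-Tb against PBS-3, 2288 of 12329 genes tested passed (18.6%), of which 9.14% of those tested rose and 9.42% fell, by the authors' deposited values. Over 12303 genes tested in both tables, 506 rose with both tumours, which was 18.8% of the rises with 4T1-Tb and 45.1% of those with 67NR-Tb, and 691 fell with both, 22% and 59.7%. Among genes that rose with 4T1-Tb, 51 fell with 67NR-Tb, and 58 did the opposite. Neutrophil precursor genes passed the low-count filter in 2 cases with 67NR-Tb, by the authors' deposited values. The 1 that rose was Kit, by 0.77 ± 0.19, which other progenitors and endothelium also express. Camp and Elane had no adjusted p with 67NR-Tb and stood at −0.02 ± 0.07 and 0.13 ± 0.10. Folds and errors both shrank at low base means, so such small values without a test do not show a lack of change. Of the mature neutrophil genes tested with 67NR-Tb, 4 of 11 rose, among them S100a9 by 0.65 ± 0.19, and none fell. Acute phase genes rose in 20 of 27 cases there, fatty acid oxidation genes rose in 2 and fell in 3 of 44, and cytosolic ribosome genes fell in 18 of 48.

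To compare the sizes, the pull toward 0, which differed between the tables, was removed from each fold change, and the difference of the effects was tested for 9738 genes. Of these 2781 differed (28.6%): the effect of 4T1-Tb was higher for 991 (10.2%) and lower for 1790 (18.4%), and the median difference was −0.09 log2. With both tables re-centred on their medians, 1253 were higher and 1194 lower. Fatty acid oxidation genes were lower with 4T1-Tb in 33 of 38 cases and higher in none, with a median difference of −0.87, and phase II genes were lower in 31 of 33, with −0.79. P450 genes were lower in 25 of 38 (median −0.82) and acute phase genes higher in 14 of 17 (median 0.89), while cytosolic ribosome genes were higher in 13 of 48 (median 0.20). Among single genes the difference was −1.23 ± 0.14 for Slc10a1, −1.75 ± 0.16 for Slc2a2 and −1.87 ± 0.23 for Pklr. For Kdr it was −0.95 ± 0.26. Sinusoidal endothelial genes rose in 17 of 22 cases with 67NR-Tb in the authors' deposited table. They were lower with 4T1-Tb in 4 of 18, a share close to the 18.4% of all genes compared. Of the neutrophil genes, 1 met the limits on base mean and error of this test, and its difference of −0.20 did not pass.

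Each deposited error can come from 2 underlying errors, and the smaller was used. The larger would put the median error of a 67NR-Tb effect at 1.19 log2 in place of 0.12. With it, 598 of the 2781 differences remained, and the groups above changed in different ways. There were then 7 fatty acid oxidation genes lower and 3 higher, 2 phase II genes lower and 8 higher, 2 P450 genes lower and 3 higher, and 1 acute phase gene higher and 10 lower. Cytosolic ribosome genes then differed more often, with 17 higher and 0 lower, as did sinusoidal endothelial genes, with 0 higher and 14 lower. The 1 neutrophil gene compared was then lower with 4T1-Tb. Of the single genes, Kdr passed with the larger error as well, and Slc10a1, Slc2a2 and Pklr did not. The tumours were compared with separate PBS groups, and line cannot be told apart from experiment.

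**Figure D4:**
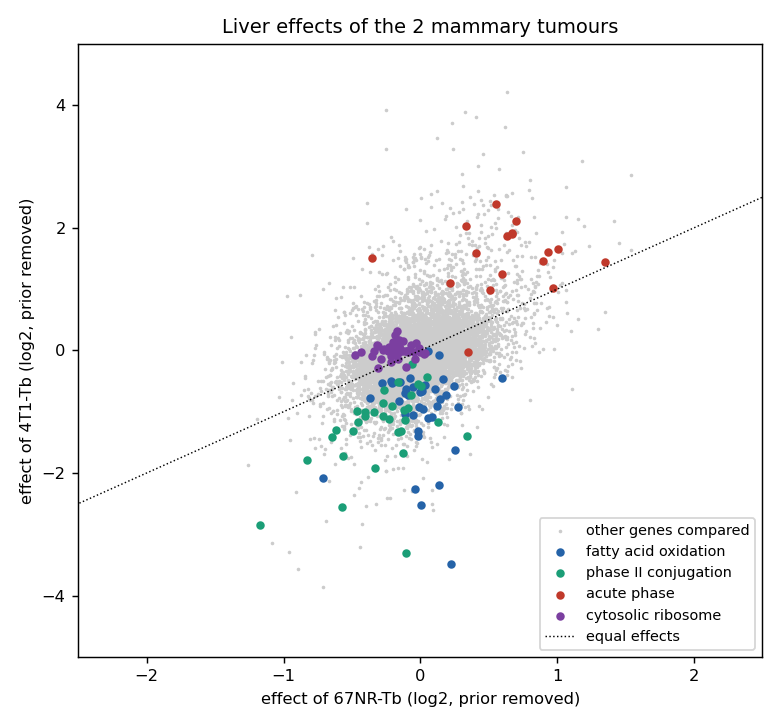
Effect of 4T1-Tb (vertical axis) against effect of 67NR-Tb (horizontal axis), each on the log2 scale over its own PBS group after removal of the pull toward 0, for 9738 genes, with 4 lists coloured; the dotted line marks equal effects, and the axes differ in range. Fatty acid oxidation and phase II genes lie mostly below the line, acute phase genes mostly above it.

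Against the melanoma B16F10, where strain, site, cell number and time differ as well, 1529 of 13031 genes passed in the authors' deposited table (11.7%; 6.48% rose and 5.25% fell). Of the rises with 4T1-Tb over 12963 genes tested in both, 584 were shared, 19.9% of those with 4T1-Tb and 70.2% of those with B16F10-Tb, and of the falls 458, 14.7% and 67.6%. The difference of effects passed for 1339 of 10612 genes (12.6%), with 4T1-Tb higher for 745 (7.02%) and lower for 594 (5.6%). Fatty acid oxidation genes were lower with 4T1-Tb in 22 of 39 cases and higher in 1 (median difference −0.70), monocyte and macrophage genes higher in 13 of 19 (1.62) and lipogenesis genes higher in 9 of 24 (0.31). Mature neutrophil genes also rose with B16F10-Tb in 9 of 15 cases tested in the authors' deposited table, and S100a9 rose by 2.80 ± 0.31 there. Acute phase genes rose with B16F10-Tb in 17 of 27 cases, and proliferation genes rose in 21 of 29 and fell in 1. In the difference test the effect of 4T1-Tb was higher for Csf3r by 3.68 ± 0.43 and for Cxcr2 by 3.41 ± 0.46. With the larger of the 2 underlying errors for B16F10-Tb, 240 of the 1339 differences remained. There were then 3 fatty acid oxidation genes lower and 2 higher, 1 monocyte and macrophage gene higher and 2 lower, and 12 lipogenesis genes higher and 0 lower, and neither Csf3r nor Cxcr2 passed.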

How the data were processed

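Total RNA of flash-frozen livers was made into stranded poly(A) libraries, per the labels' protocols. The submitters' processing notes name bcl2fastq 2.19, TopHat2 2.0.11, Cufflinks 2.1.1, the build mm9 and DESeq2 without a version; the counting tool and annotation are not given in the sources used here. Per the file headers, the authors deposited for each gene a base mean (signal: the mean of scaled counts), a log2 fold change and its error, a Wald score and a p-value, also in a form adjusted after Benjamini and Hochberg. Replicates are separate samples by label only, so p-values measure the spread between these samples. No per-sample column was used.

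In the 3 tables used the deposited log2 errors had a ceiling (0.44 for 4T1-Tb, 0.19 for 67NR-Tb, 0.32 for B16F10-Tb), and errors and folds both shrank at low base means, as a zero-centred normal prior in the authors' fit gives. The design had assumed unshrunken folds. Difference tests across all genes therefore removed the prior, of SD 2 times the ceiling (0.87, 0.38 and 0.64), algebraically, and divided the difference of effects by its error (normal distribution, two-sided, Benjamini-Hochberg). They used genes tested in both tables, with a base mean of at least 20 and an error of at most 0.9 of the ceiling in both, which left out 2565 of 12303 genes for 67NR-Tb and 2351 of 12963 for B16F10-Tb. Tables were normalised separately, and effects are relative to each table's own PBS group. The test was tried on simulated data limited to genes for which the smaller underlying error holds. That trial cannot show which of the 2 errors holds for a real gene.

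The comparison and the 46 gene lists were chosen with earlier results of these data known; 1275 of 1284 list entries matched a gene, 16 by an older symbol. Named genes are the 12 largest rises and falls past the threshold with a base mean of at least 50 (predicted genes left out), members of smallest p in a list, its defining members, and, in each difference test, the 6 largest each way. Other members were named after their values were seen. Python 3.11.15, pandas 2.3.3, numpy 2.4.6 and scipy 1.17.1 were used. Some members of the lists are counted but not reported by name here.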

Additional observations from a re-analysis of the deposited data

Results flagged for a closer look

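The effect of 4T1-Tb on the liver differed from that of another tumour, by a test of the difference itself, for the genes named here. They are the 6 largest differences each way with a base mean of at least 50 in both tables, on the log2 scale with the pull toward 0 removed and ± the standard error, adjusted over all genes compared. Against 67NR-Tb, the effect of 4T1-Tb was higher for Hmgb2 by 4.17 ± 0.33, Arhgdib by 3.58 ± 0.44, G6pdx by 3.58 ± 0.35, Atp8b4 by 3.54 ± 0.32, Rac2 by 3.47 ± 0.33 and Coro1a by 3.40 ± 0.44. Hmgb2 is a chromatin protein gene of dividing cells, and Arhgdib, Rac2 and Coro1a are genes of leukocyte signalling and motility. Against 67NR-Tb it was lower for Acot1 at −3.72 ± 0.53, 2810007J24Rik at −3.20 ± 0.46, Cyp2a22 at −3.14 ± 0.31, Hao2 at −2.77 ± 0.40, Mup3 at −2.70 ± 0.49 and Cyp2g1 at −2.68 ± 0.50. Of these 12, 9 also passed with the larger underlying error of 67NR-Tb, and Cyp2a22, Hao2 and Cyp2g1 did not.

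Against B16F10-Tb the effect of 4T1-Tb was higher for Pram1 by 5.17 ± 0.49, Anxa1 by 4.39 ± 0.56, Ncf1 by 4.10 ± 0.49, Alox5ap by 4.08 ± 0.54, G6pdx by 3.79 ± 0.39 and Cd300lf by 3.75 ± 0.50. Pram1, Ncf1, Alox5ap and Cd300lf are genes of myeloid cells. It was lower for Cyp4a31 at −4.82 ± 0.52, 9130409I23Rik at −3.56 ± 0.51, Cyp2g1 at −3.55 ± 0.59, Akr1b7 at −3.32 ± 0.54, Fbxo21 at −2.69 ± 0.34 and Pnldc1 at −2.64 ± 0.47. Of these 12, 4 also passed with the larger underlying error of B16F10-Tb: Pram1, Cyp4a31, 9130409I23Rik and Akr1b7. Tumour line and experiment cannot be told apart in either comparison, and strain, site and time differ in the B16F10 one.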

How the results depend on the processing

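Of the 6628 genes that changed with 4T1-Tb, 2158 also had an absolute log2 fold change of at least 1, 1736 of them higher and 422 lower; since deposited folds are drawn toward 0, this count is itself low. The other alternatives for this comparison left between 5198 and 6484 genes past the threshold. When only genes with a base mean of at least 50 were kept, falls outnumbered rises, with 2558 higher and 3132 lower. Re-centring on the median of genes with a base mean of at least 50 (−0.05 log2) gave 3762 higher and 2708 lower, and Rps2, Rpl22 and Maff then no longer passed.

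The differences between tumours depended more on the settings. For 67NR-Tb, errors multiplied by 1.2 left 1783 (659 with 4T1-Tb higher, 1124 lower), and a t distribution with 8 degrees of freedom left 1220 (486 and 734). Chosen after seeing the data were the deposited fold changes and errors as they stand, which gave 1895 with 4T1-Tb higher and 2033 lower, and the larger underlying error, which gave 1624 in all and 761 lower. For B16F10-Tb the same settings gave 673 (417 and 256), 237 (170 and 67), 2061 (1274 higher) and 777 (433 and 344). Under the larger underlying error the difference for Hao2 against 67NR-Tb turned from −2.77 to 0.71. The main counts rest on the smaller error because the median deposited error was highest at base means between 10 and 30 in the 67NR-Tb and B16F10-Tb tables and fell on either side, which only the smaller error allows above that range for most genes; a gene of unusually high spread can be an exception.

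No paired analysis was possible because values per liver were not analysed here. For the same reason leaving out each replicate was not run, and library depth, which limits what can be said of genes with low base means, is unknown.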

Other observations

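The following genes are in none of the lists described and were chosen after their values were seen. They stand for no gene group, and 22.4% of all genes tested rose. In the authors' deposited table, the basophil protease gene Mcpt8 rose by 4.43 ± 0.39 log2 at a base mean of 29.8, and the granule gene Prg2 by 3.12 ± 0.43 at 15.8. Among genes that platelets and megakaryocytes express, the authors' deposited table gave rises for Itga2b and Itgb3 by 2.11 ± 0.25 and 2.32 ± 0.25, Pf4 by 2.10 ± 0.34 and Gp1ba by 3.16 ± 0.39, and the progenitor receptor gene Flt3 rose by 2.23 ± 0.31 (each with a DESeq2 adjusted p under 0.05).

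In the authors' deposited table Afp (alpha-fetoprotein), which the fetal liver makes, rose by 2.73 ± 0.26, the imprinted non-coding RNA gene H19 by 2.61 ± 0.40, Gpc3 by 1.28 ± 0.32 and Igf2 by 1.07 ± 0.35. Mthfd2, a mitochondrial folate enzyme gene, rose by 2.62 ± 0.34 and the cell cycle inhibitor gene Cdkn1a by 2.55 ± 0.43. Hspa1b, an inducible heat shock gene, fell to −2.32 ± 0.22, its partner Dnajb1 to −0.57 ± 0.16 and Hsph1 to −0.39 ± 0.13. Hspa8 stood at −0.27 ± 0.15 and Hspa1a at −0.16 ± 0.43, at a base mean of 7.2 for Hspa1a, and neither passed. Hsp90aa1 stood at 0.21 ± 0.16 in the authors' deposited table, without a p-value.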
